A study of Sus scrofa with 9 samples.

Results

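Porcine hatched blastocysts (HB) produced by manipulation and grown in vitro were compared as a whole with HB that developed in the gilt. The manipulated side held 2 groups, parthenogenetic activation (PA HB) and chromatin transfer (CT HB), with 3 arrays each. The other side held the 3 arrays of in vivo derived embryos (IVV HB), so that all 9 arrays of the series entered. For each of 7506 genes, the mean of the PA HB and CT HB group means, each with equal weight, was set against the IVV HB mean, and the difference is called the pooled difference below. Each array held RNA amplified from a pool of 5 embryos and labelled with Cy5, hybridised with a Cy3-labelled reference made from in vivo oocytes and embryos of successive stages from the germinal vesicle to day 11, and dyes were not swapped.

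IVV HB were collected from inseminated gilts, labelled as 5.5 days after insemination. PA HB came from mature oocytes without sperm, and CT HB from enucleated oocytes that received a somatic nucleus remodelled before transfer. Both were activated with ionomycin and DMAP and cultured in the same medium by 1 producer. Their labels give a collection time of 7 hpf, in hours, at which no blastocyst exists, so that the age of the cultured embryos was not read from it. The somatic donor cell type is not given in the sources used here. Genome, activation, culture, producer and embryo age changed together between IVV HB and the manipulated embryos and cannot be told apart in the pooled difference. Whether pools within a group stem from different collections or activation runs is not given, and the tests then weigh differences against a pool-to-pool spread that may be technical.

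A hatched blastocyst has left the zona pellucida and consists of an outer trophectoderm, which will form the placenta, and an inner cell mass that separates into epiblast and hypoblast. Parthenotes have only maternal chromosomes, whereas a CT embryo carries the genome of a differentiated cell that the ooplasm must reprogramme. Embryos grown in medium lack oviductal and uterine secretions and are known to differ from in vivo embryos in metabolism, redox state and stress responses.

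The tissue was first checked against marker genes. Of 10 trophectoderm markers 7 were measured, and 0 of them passed the test in either direction, as for CDX2, with a pooled difference of 0.02 (adjusted p = 0.972). The median of these markers lay between 0.20 and 0.98 on the IVV HB arrays, between 0.18 and 0.77 on the PA HB arrays and between 0.52 and 0.80 on the CT HB arrays (log2 ratios of embryo over reference). Of the inner cell mass markers 3 of 9 were measured and 0 passed. Of 8 hypoblast markers 4 were measured and 1 passed, GATA6, which was higher (1.28, adjusted p = 0.0128). Over all genes 1.61% passed, so that counts from so few markers cannot show that the tissues were alike. The interquartile range of the log2 ratios was 0.55 to 0.67 on IVV HB arrays, 0.58 to 0.66 on CT HB arrays and 0.85 to 1.03 on PA HB arrays, so that PA HB spread more widely. Fewer cells of a type and less RNA per cell cannot be told apart in pooled embryos.

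Manipulated and cultured embryos differed from IVV HB in 121 genes (1.61% of those tested), at an adjusted p of at most 0.05 by limma with Benjamini-Hochberg adjustment and a fold change of at least 2. Of these, 71 were higher (0.946%) and 50 were lower (0.666%) than in IVV HB. The higher genes were led by AIF1, S100A11, SLC36A2 and INPP5D, and the lower genes by CACYBP, SLC3A1 and PAPSS2. A pooled call does not require that PA HB and CT HB each pass against IVV HB. For CT HB alone in the same limma fit, the adjusted p was 2.57e-06 for AIF1 and 0.00327 for INPP5D. It was 0.0623 for S100A11 and 0.229 for SLC36A2. Without the fold limit, 226 genes passed in the pooled difference (3.01%). In 89 of the 121, all 6 manipulated arrays lay beyond all 3 IVV HB arrays (6.89% of all genes), 52 above (3.09%) and 37 below (3.8%). Changes of at least 4-fold were found in 7 genes, 6 of them higher. Around the 2-fold limit, ANXA2 (1.01) and HNRNPAB (-1.01) lay just inside and POU1F1 (0.99) and ABCE1 (-0.99) just outside (log2 differences). Errors given as ± are standard errors of the fit with 3 arrays per group, and where a call is said to end without certain arrays, each was left out alone. Probes without a gene symbol, 13627 in number, gave 100 higher (0.734%) and 112 lower (0.822%), and the 10344 named probes, taken singly, 100 in each direction (0.967% each).

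Whether PA HB and CT HB moved alike was read from the difference between CT HB and PA HB. The difference itself uses no IVV HB array, but its interval and p rest on the spread within all 3 groups, IVV HB included. Among the 121 genes, 41 differed between CT HB and PA HB at the same thresholds, against 7.77% of all genes. In 30 genes the 95% interval of the difference between CT HB and PA HB lay within 2-fold either way, against 72.3% of all genes, and for the other 50 neither could be said. Of the 50 genes lower than IVV HB, 47 were lower in PA HB than in CT HB, and 19 of them passed the test between these groups. Of the 71 higher genes, 46 were higher in PA HB than in CT HB. Of all 71, 22 passed the test between these groups, 19 with PA HB above CT HB and 3 with CT HB above. Over all genes CT HB lay above PA HB in 49.8%. The median difference from IVV HB was -1.80 in PA HB and -0.85 in CT HB over the 50 lower genes, and 1.59 in PA HB and 1.27 in CT HB over the 71 higher genes (log2). The wider spread of the PA HB arrays moves with these values, and when all arrays were scaled to 1 spread, the called genes became 96 higher and 56 lower, and 31 of these differed between CT HB and PA HB.

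**Figure D1:**
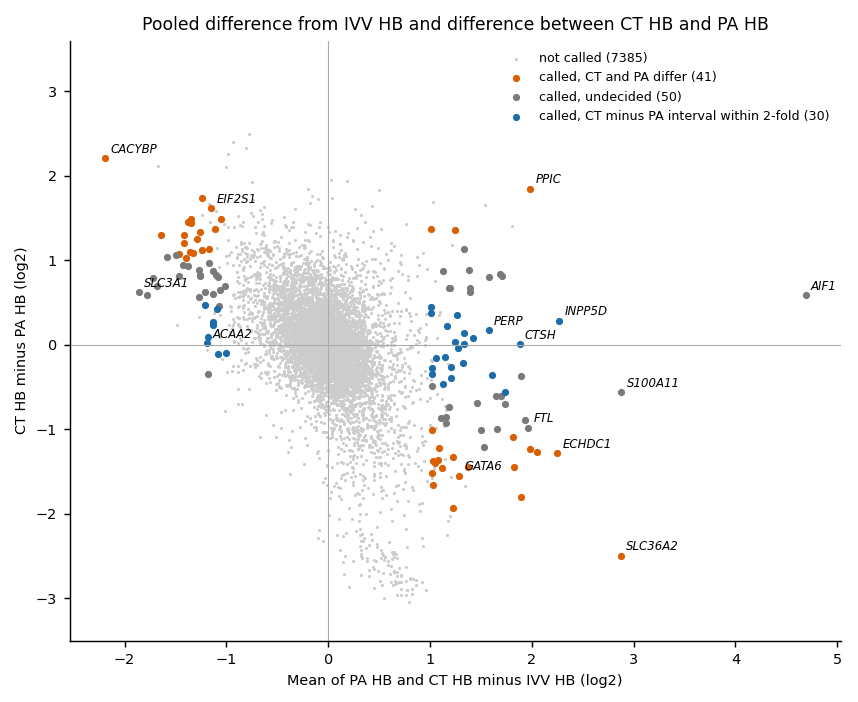
Each point is 1 of 7506 genes, with the pooled difference from IVV HB on the x axis and the difference between CT HB and PA HB on the y axis (both log2). Called genes are coloured by whether CT HB and PA HB differed (41), had an interval within 2-fold (30) or neither (50), and INPP5D, CTSH, PERP and ACAA2 lie close to the horizontal line.

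When all 6 manipulated arrays were treated as 1 group, so that any difference between PA HB and CT HB counted as spread, 15 genes passed, and all 15 were among the 121. Those higher were AIF1, INPP5D, FTL, TRAPPC5, CTSH, P2RX4, TPM4, PERP, MORN2, CRYL1, ULK1 and RPLP1, and those lower were SLC3A1, ACAA2 and TMEM126A. CRYL1, MORN2, TPM4 and TMEM126A were chosen for naming after their values were seen. Among the 15 were AIF1 and INPP5D, known from blood cells, and P2RX4 of immune and epithelial cells. Others act in iron storage (FTL), the lysosome and autophagy (CTSH, ULK1), the actin cytoskeleton (TPM4), cell junctions (PERP), and mitochondrial metabolism (ACAA2, TMEM126A). These are single genes and stand for no pathway. In 11 of the 15 the interval of the difference between CT HB and PA HB lay within 2-fold, and for AIF1, FTL, TRAPPC5 and SLC3A1 it did not. Over all genes the interval lay within 2-fold in 72.3%. Passing the fit with 1 group favours a small difference between CT HB and PA HB, so the count is no separate test of likeness.

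Several of these genes are not of the groups described further on. TRAPPC5, a subunit of a complex that tethers transport vesicles, gave log2 ratios of -0.73, -0.72 and 0.08 in IVV HB, 1.48, 1.36 and 2.03 in PA HB, and 0.92, 1.76 and 1.08 in CT HB. It rose by 1.89 ± 0.25 (adjusted p = 0.00443), and the manipulated arrays lay above those of IVV HB without exception. CRYL1, a sugar acid dehydrogenase related to crystallins, gave -0.80, -0.42 and -0.41 in IVV HB, 0.64, 0.53 and 0.46 in PA HB, and 0.94, 0.72 and 1.04 in CT HB, and rose by 1.27 ± 0.15 (adjusted p = 0.00307). MORN2, named for its MORN repeats, gave -1.51, -1.62 and -1.36 in IVV HB, -0.31, 0.03 and -0.41 in PA HB, and -0.06, -0.32 and 0.11 in CT HB, and rose by 1.33 ± 0.16 (adjusted p = 0.00307). In CRYL1 and MORN2 likewise, all manipulated arrays lay above all IVV HB arrays.

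The largest rise was that of a gene known from blood cells. AIF1 encodes a calcium-binding, actin-bundling protein of macrophages and microglia. Its log2 ratios were 0.15, 0.45 and -0.03 on the IVV HB arrays, 4.25, 5.18 and 4.32 on the PA HB arrays, and 4.93, 5.35 and 5.24 on the CT HB arrays. All 6 manipulated arrays lay far above IVV HB, and the groups did not overlap. The pooled difference of AIF1 was 4.69 ± 0.22 (log2), or 25.8-fold, with an adjusted p of 1.01e-06. It was 4.40 for PA HB and 4.98 for CT HB, and the difference between them was 0.59 (adjusted p = 0.153).

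INPP5D, an inositol phosphatase of blood cells, gave log2 ratios of -0.33, -0.78 and -0.06 in IVV HB, 1.93, 2.16 and 1.13 in PA HB, and 1.56, 2.23 and 2.28 in CT HB. It rose by 2.27 ± 0.26 (log2, adjusted p = 0.00237), and CT HB and PA HB differed by 0.28, with a 95% interval from -0.37 to 0.94. The manipulated arrays were all above IVV HB and intermingled with each other. P2RX4, an ATP-gated cation channel of immune and epithelial cells, gave -1.26, -0.69 and -0.54 in IVV HB, 1.35, 1.04 and 1.18 in PA HB, and 0.56, 0.66 and 0.69 in CT HB. It rose by 1.74 ± 0.17 (log2, adjusted p = 0.00101), and each PA HB array lay above each CT HB array.

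Of 13 leukocyte and macrophage genes measured, 2 were higher (AIF1 and INPP5D) and 0 lower, and the median pooled difference of the list was 0.13, against 0.01 over all genes. For this and each later list count, the shares over all genes were 0.946% higher and 0.666% lower. The lists were chosen with earlier results of these data known, so their counts are descriptive. The defining leukocyte markers were not called. PTPRC, the common leukocyte antigen, had a pooled difference of 0.08 (adjusted p = 0.861), the macrophage receptor gene CSF1R one of 0.07 (adjusted p = 0.935) and the myeloid transcription factor gene SPI1 one of 0.13 (adjusted p = 0.723). These were the 3 measured of 9 defining markers, and their median ranged from 0.08 to 0.26 on IVV HB arrays, from 0.44 to 0.58 on PA HB arrays and from 0.03 to 0.47 on CT HB arrays. CXCR4, a chemokine receptor, differed by 0.65 (adjusted p = 0.498), with all PA HB arrays above all CT HB arrays, and CD86, a costimulatory molecule, by 0.45 (adjusted p = 0.161). The part of blood cells in these rises was not tested.

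**Figure D2:**
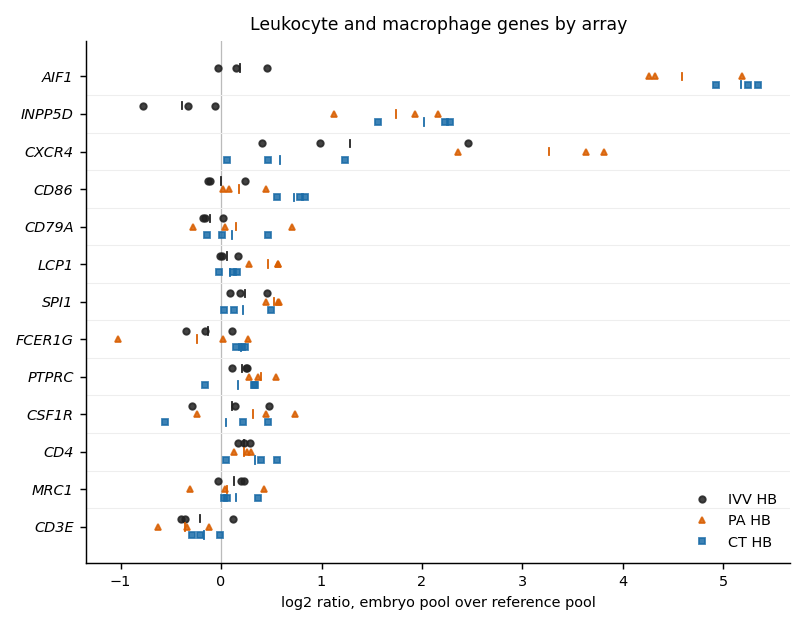
The log2 ratio of embryo pool over reference is shown for 13 leukocyte and macrophage genes on the 9 arrays, with vertical ticks at the group means. AIF1 and INPP5D separate the manipulated arrays from IVV HB, whereas PTPRC, CSF1R and SPI1 do not.

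Among 19 cytokines, chemokines and galectins, 4 were higher and 0 lower, with a median of 0.34. IL6, a cytokine of acute inflammation, gave -0.53, -1.21 and -1.43 in IVV HB, 0.33, 0.23 and 0.06 in PA HB, and 1.19, 0.73 and 1.23 in CT HB. The 3 groups were fully separated, with CT HB highest. IL6 rose by 1.68 ± 0.21 (log2, adjusted p = 0.00324). CD70, a tumour necrosis factor family ligand of lymphocytes, rose by 1.94 ± 0.27 (adjusted p = 0.00549), from a range of -0.55 to 0.58 in IVV HB to 1.91 to 2.68 in PA HB and 1.07 to 1.94 in CT HB. MIF, a macrophage cytokine, rose by 1.50 ± 0.28 (adjusted p = 0.0167), with 2.00 for PA HB and 0.99 for CT HB (adjusted p = 0.229 for CT HB alone). LGALS3, a galactose-binding lectin, rose by 1.24 ± 0.26 (adjusted p = 0.0238, and 1.84 under scale normalization), with 0.56 for PA HB and 1.92 for CT HB, and the difference between them was called (1.36, adjusted p = 0.0118). The call of LGALS3 ended without IVV HB 1 or without CT HB 3 (adjusted p up to 0.112). Interferon response genes, 16 of which were measured, gave 0 calls and a median of 0.07.

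Of 23 lysosomal hydrolases and membrane proteins, 3 were higher and 0 lower. Their median was 0.40 (16 above 0, against 51.4% of all genes), but 0.20 under quantile and 0.22 under scale normalization. CTSH, a lysosomal aminopeptidase, gave -1.64, -1.05 and -1.00 in IVV HB, 0.62, 0.86 and 0.46 in PA HB, and 0.09, 0.77 and 1.09 in CT HB. It rose by 1.88 ± 0.23 (log2, adjusted p = 0.00324), or 3.68-fold, with 1.88 for PA HB and 1.88 for CT HB. All manipulated arrays lay above all IVV HB arrays and those of PA HB and CT HB overlapped. CTSK, a collagen-degrading cathepsin, gave -1.70, -1.45 and -1.16 in IVV HB, -0.59, -0.39 and 0.20 in PA HB, and 0.39, 0.71 and 0.53 in CT HB, a rise of 1.58 ± 0.20 (adjusted p = 0.0034). PPT1, which removes fatty acids from proteins in the lysosome, rose by 1.01 ± 0.20 (adjusted p = 0.0219), a call that ended without any 1 of 5 arrays (CT HB 2, CT HB 3, IVV HB 1, IVV HB 3 and PA HB 1, adjusted p up to 0.134), and its difference was 0.39 under quantile normalization. CD63, a membrane protein of late endosomes, differed by 0.87 (adjusted p = 0.0536).

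Of 17 autophagy genes, 2 were higher and 0 lower, with a median of 0.12. ULK1, the kinase that starts autophagosome formation, gave -1.35, -1.06 and -1.27 in IVV HB, -0.22, 0.08 and 0.48 in PA HB, and -0.23, -0.18 and -0.05 in CT HB. It rose by 1.21 ± 0.17 (adjusted p = 0.00527), with no overlap, and the interval of the difference between CT HB and PA HB ran from -0.69 to 0.17. GABARAP, a ubiquitin-like protein of the autophagosome membrane, rose by 1.18 ± 0.25 (adjusted p = 0.0261), and its call ended without any 1 of 5 arrays (CT HB 2, CT HB 3, IVV HB 1, IVV HB 3 and PA HB 2, adjusted p up to 0.162). Its relatives GABARAPL2 and MAP1LC3B differed by 0.59 (adjusted p = 0.106) and 0.37 (adjusted p = 0.274).

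Annexins bind membranes in the presence of calcium and pair with small S100 proteins. Of 15 such genes, 3 were higher and 0 lower, with a median of 0.17. S100A11 gave -1.66, 0.89 and 0.26 in IVV HB, 2.95, 3.23 and 2.78 in PA HB, and 1.46, 2.91 and 2.92 in CT HB. It rose by 2.88 ± 0.48 (log2, adjusted p = 0.0113), or 7.35-fold, although IVV HB 1 stood well below the other IVV HB arrays, and without that array the rise was 2.14 (log2, adjusted p = 0.034). ANXA1 rose by 1.39 ± 0.29 (adjusted p = 0.0238) and ANXA2 by 1.01 ± 0.19 (adjusted p = 0.0182), the latter with 0.32 for PA HB and 1.70 for CT HB and with probes at 0.57, 1.19 and 1.27. The call of ANXA1 ended without CT HB 3 or any 1 IVV HB array (adjusted p up to 0.103), and that of ANXA2 without CT HB 3, IVV HB 1, IVV HB 3 or PA HB 1 (adjusted p up to 0.114). S100A10, the partner of ANXA2, differed by 1.21 (adjusted p = 0.0607). Genes of the actin cytoskeleton outside the lists, chosen after their values were seen, included TPM4, a tropomyosin, which rose by 1.61 ± 0.23 (adjusted p = 0.00527), and CAPG, an actin-capping protein, which rose by 1.47 ± 0.22 (adjusted p = 0.0064). PERP, a membrane protein of desmosomes and a target of p53, gave -0.67, -0.30 and -0.04 in IVV HB, 1.39, 0.89 and 1.18 in PA HB, and 1.32, 1.32 and 1.35 in CT HB. PERP rose by 1.57 ± 0.17 (adjusted p = 0.00187) and was the 1 gene called of 21 p53 targets, whose median was 0.05. XPC, which recognises damaged DNA, differed by 0.96 (adjusted p = 0.0238), under 2-fold. The cell cycle inhibitor gene CDKN1A differed by 0.80 (adjusted p = 0.0508). Cell adhesion, junction and matrix genes, 24 in number, gave 0 calls and a median of -0.24, and 17 apoptosis genes gave 0 calls and a median of -0.23.

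**Figure D3:**
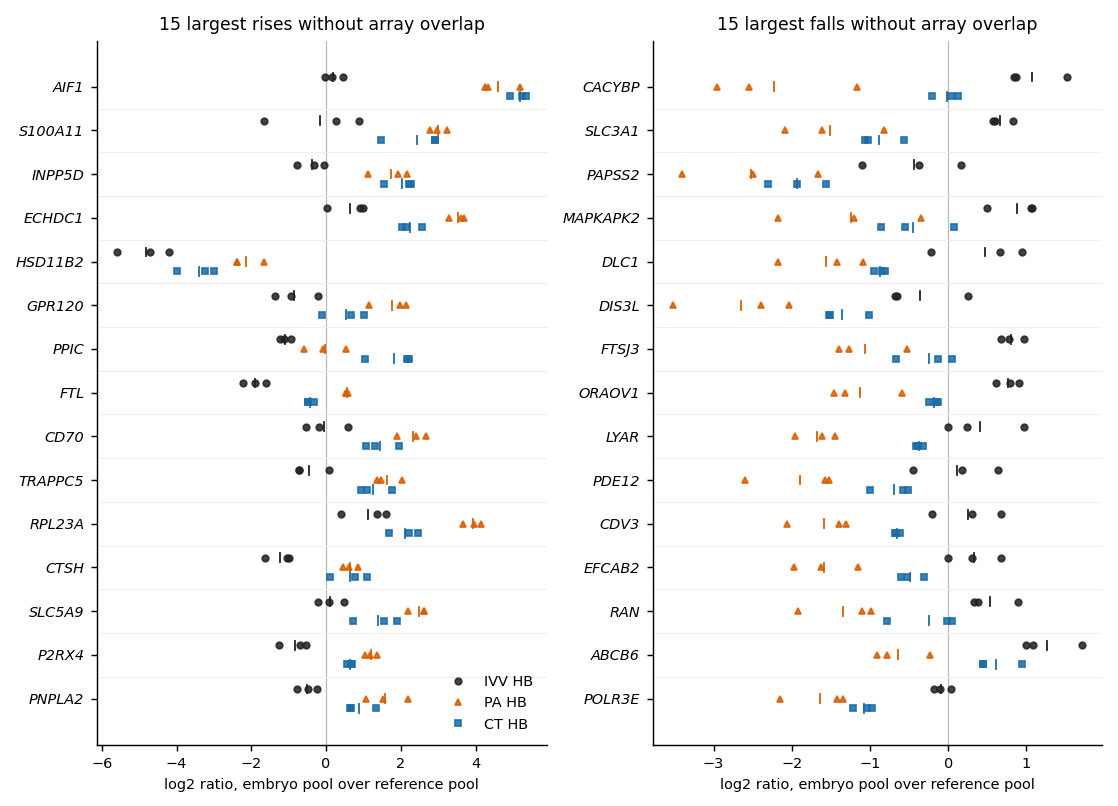
The log2 ratios of embryo pool over reference are shown for the 15 largest rises and the 15 largest falls among called genes whose 6 manipulated arrays all lie beyond the 3 IVV HB arrays, with vertical ticks at the group means. AIF1 lies above 4 on each manipulated array and below 1 on each IVV HB array, and each of the 15 falls has a lower mean in PA HB than in CT HB.

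Of 26 antioxidant and thiol redox genes, 3 were higher and 0 lower, with a median of 0.25. FTL, the light chain of the iron store ferritin, gave -2.23, -1.89 and -1.61 in IVV HB, 0.53, 0.53 and 0.58 in PA HB, and -0.49, -0.49 and -0.31 in CT HB. The 3 groups were separated, with PA HB highest. FTL rose by 1.97 ± 0.16 (log2, adjusted p = 0.000186), or 3.91-fold, and its difference between CT HB and PA HB was -0.98 (adjusted p = 0.00679), just under 2-fold. TXNIP, which inhibits thioredoxin, rose by 1.71 ± 0.23 (adjusted p = 0.00448), from -0.46, -0.26 and -0.02 in IVV HB to 1.59, 0.90 and 0.69 in PA HB and 1.42, 2.05 and 2.13 in CT HB. GSS, glutathione synthetase, rose by 1.39 ± 0.18 (adjusted p = 0.00423), with 1.08 for PA HB and 1.71 for CT HB. Of 10 iron handling genes, FTL was higher and CP, the copper ferroxidase ceruloplasmin, lower. FTH1, the ferritin heavy chain, differed by 0.31 (adjusted p = 0.507). CP fell by 1.24 ± 0.28 (adjusted p = 0.038), with -2.11 for PA HB and -0.37 for CT HB, and its call ended without CT HB 1, CT HB 2 or any 1 IVV HB array (adjusted p up to 0.217).

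Single genes of steroid and lipid metabolism were called. HSD11B2, which inactivates cortisol, gave -5.58, -4.19 and -4.71 in IVV HB, -2.39, -2.38 and -1.66 in PA HB, and -3.01, -3.23 and -3.98 in CT HB. It stayed below the reference on all arrays and rose by 2.05 ± 0.31 (adjusted p = 0.00662, and 2.98 under scale normalization), with 2.68 for PA HB and 1.42 for CT HB, and it was the 1 gene called of 20 in steroid, prostaglandin and retinoid metabolism (median 0.05). ECHDC1, an enzyme that clears a toxic by-product of fatty acid synthesis, rose by 2.25 ± 0.22 (adjusted p = 0.00101), with 2.89 for PA HB and 1.61 for CT HB. GPR120, a receptor for long-chain fatty acids, rose by 1.98 ± 0.31 (adjusted p = 0.00788), with 2.60 for PA HB and 1.37 for CT HB (adjusted p = 0.131 for CT HB alone). Its pooled adjusted p without IVV HB 1 was 0.05, just past the limit. PNPLA2, the lipase that opens triglyceride breakdown, gave -0.78, -0.49 and -0.24 in IVV HB, 1.51, 1.06 and 2.18 in PA HB, and 0.66, 1.34 and 0.64 in CT HB. It rose by 1.74 ± 0.25 (adjusted p = 0.00612) and was the 1 gene called of 17 for lipid droplets and lipid synthesis (median -0.03). Cholesterol synthesis and uptake genes, 11 in number, gave 0 calls.

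Of 19 genes of fatty acid beta-oxidation, 0 were higher and 1 was lower, with a median of -0.28. Quantile and scale normalization each gave 1 higher and 1 lower. ACAA2, the thiolase that ends a turn of mitochondrial beta-oxidation, gave 0.91, 0.52 and 0.21 in IVV HB, -1.07, -0.56 and -0.34 in PA HB, and -0.78, -0.58 and -0.55 in CT HB. It fell by 1.19 ± 0.20 (adjusted p = 0.0113), with -1.20 for PA HB and -1.18 for CT HB, and its call ended without IVV HB 1 (adjusted p = 0.0723). HADHA and CPT1A, which act earlier in the same pathway, differed by 0.95 (adjusted p = 0.0558) and -0.89 (adjusted p = 0.061).

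Oxidative phosphorylation had the lowest median of the 39 lists, -0.49 over 39 genes (33 below 0), also under quantile (-0.52) and scale normalization (-0.48), with medians of -0.69 in PA HB and -0.24 in CT HB. The test passed for 1 of them, NDUFB9 of complex I, which fell by 1.07 ± 0.26 (adjusted p = 0.0484), and that call ended without any 1 of 8 arrays, PA HB 1 being the exception (adjusted p up to 0.217). NDUFV2 and NDUFA12 had pooled differences of -0.88 (adjusted p = 0.0222) and -0.75 (adjusted p = 0.0219), under the 2-fold limit. NDUFB1 and NDUFA9, also of complex I, had -0.77 (adjusted p = 0.0253) and -0.89 (adjusted p = 0.041). TMEM126A, TFAM, COQ3 and SLC25A4 lie outside this list, were chosen because they were called lower, and stand for no group. TMEM126A, an assembly factor of complex I, gave 0.87, 0.16 and 0.38 in IVV HB, -0.97, -0.64 and -0.75 in PA HB, and -0.67, -0.61 and -0.37 in CT HB. It fell by 1.14 ± 0.18 (adjusted p = 0.00765), and without IVV HB 1 its call was lost because the fall dropped below 2-fold (adjusted p = 0.0426). TFAM, which packages mitochondrial DNA, fell by 1.24 (adjusted p = 0.0387), COQ3 of ubiquinone synthesis by 1.39 (adjusted p = 0.0182), and SLC25A4, an exchanger of ADP and ATP, by 1.13 (adjusted p = 0.0193). For TFAM the difference was -1.81 in PA HB and -0.68 in CT HB, and for COQ3 -1.91 and -0.88. In CT HB alone neither passed (adjusted p = 0.486 and 0.267). The calls of COQ3 and SLC25A4 ended without IVV HB 1 or IVV HB 3 (adjusted p up to 0.114 and 0.115), and that of TFAM without CT HB 2, CT HB 3 or any 1 IVV HB array (adjusted p up to 0.215).

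Of 19 glycolysis and glucose uptake genes, GAPDH was higher and LDHB lower, with a median of -0.01. GAPDH rose by 1.32 ± 0.31 (adjusted p = 0.0414), with overlap between IVV HB and CT HB 1, and its call ended without any 1 of 7 arrays, all but CT HB 1 and PA HB 1 (adjusted p up to 0.202). LDHB, a lactate dehydrogenase subunit, fell by 1.27 ± 0.23 (adjusted p = 0.0152), but its probes gave -1.89 and -0.65, and the call ended without IVV HB 1 (adjusted p = 0.0826). LDHA, the other subunit, had a pooled difference of 0.67 (adjusted p = 0.041), and the glucose transporter gene SLC2A1 one of -0.84 (adjusted p = 0.0225), both under 2-fold. SLC5A9, a sodium-coupled sugar transporter, rose by 1.82 ± 0.25 (adjusted p = 0.00493).

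Among 14 amino acid transporters, SLC36A2 was higher and SLC3A1 lower. SLC3A1, the heavy chain of the carrier for cystine and basic amino acids, gave 0.83, 0.60 and 0.57 in IVV HB, -0.82, -1.61 and -2.09 in PA HB, and -1.06, -1.02 and -0.57 in CT HB. It fell by 1.86 ± 0.24 (log2, adjusted p = 0.00443), with no overlap between manipulated and IVV HB arrays. SLC36A2, a proton-coupled carrier of small amino acids, gave -0.70, -0.44 and -0.37 in IVV HB, 3.59, 3.77 and 3.49 in PA HB, and -0.43, 2.48 and 1.32 in CT HB. Its pooled rise of 2.87 ± 0.45 (adjusted p = 0.00814) joined a uniform rise in PA HB with CT HB arrays that ran from within the IVV HB range to well above it, and CT HB lay 2.49 below PA HB (adjusted p = 0.0102).

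The largest fall was that of a cochaperone gene. CACYBP, which binds S100 proteins, gave 1.52, 0.87 and 0.84 in IVV HB, -2.95, -2.55 and -1.17 in PA HB, and 0.13, -0.20 and 0.04 in CT HB. The 3 groups were separated. CACYBP fell by 2.19 ± 0.33 (log2, adjusted p = 0.0064), with -3.30 for PA HB and -1.09 for CT HB. Of 34 cytosolic chaperone genes, CACYBP and DNAJC8 were lower and 0 higher, with a median of -0.43. DNAJC8, a cochaperone of the spliceosome, fell by 1.08 ± 0.22 (adjusted p = 0.0234), with -1.02 for PA HB and -1.14 for CT HB, a call that ended without CT HB 3, IVV HB 1 or IVV HB 2 (adjusted p up to 0.149). PTGES3 and HSP90AA1 had pooled differences of -0.98 (adjusted p = 0.0182) and -0.89 (adjusted p = 0.0261), under 2-fold, and the probes of HSP90AA1 gave -1.31 and -0.47. In the endoplasmic reticulum stress list, with 21 genes and a median of 0.08, only the cochaperone gene DNAJB11 passed, which fell by 1.17 ± 0.22 (adjusted p = 0.0167), and its call ended without IVV HB 3 (adjusted p = 0.0825).

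Of 30 translation factors, 3 were lower and 0 higher, with medians of -0.21 pooled, -0.32 in PA HB and 0.01 in CT HB. EIF3A and EIF3I, subunits of the factor that recruits the small ribosomal subunit to mRNA, fell by 1.50 ± 0.28 (adjusted p = 0.0181) and 1.46 ± 0.28 (adjusted p = 0.0198). EIF2S1, a subunit of the factor that brings the initiator tRNA, fell by 1.15 ± 0.21 (adjusted p = 0.0172), with -1.96 for PA HB and -0.34 for CT HB, where the arrays overlapped those of IVV HB. All of these calls ended without IVV HB 1 or IVV HB 3 (adjusted p up to 0.0834 for EIF3A, 0.119 for EIF3I and 0.112 for EIF2S1). ABCE1, which recycles ribosomes, differed by -0.99 (adjusted p = 0.0113), just under 2-fold. Of 44 cytosolic ribosomal protein genes, RPL23A and RPLP1 were higher and 0 lower, with medians of -0.13 pooled, -0.51 in PA HB and 0.27 in CT HB. The next members by adjusted p, RPL27 and RPL19, had pooled differences of -0.99 (adjusted p = 0.0517) and -0.75 (adjusted p = 0.0536). RPLP1 rose by 1.14 ± 0.19 (adjusted p = 0.00952), with 1.21 for PA HB and 1.07 for CT HB, and its call ended without IVV HB 1 (adjusted p = 0.0609). Ribosomal protein genes, like GAPDH, have many near-identical pseudogenes, so that cross-hybridisation cannot be told apart from the gene itself.

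The next falls were of single genes outside the lists that act on RNA or ribosomes. FTSJ3, a methyltransferase of ribosomal RNA processing, gave 0.78, 0.97 and 0.67 in IVV HB, -0.52, -1.27 and -1.39 in PA HB, and -0.66, -0.13 and 0.04 in CT HB, and fell by 1.46 ± 0.22 (adjusted p = 0.00662). ORAOV1, which takes part in ribosome assembly, fell by 1.42 ± 0.19 (adjusted p = 0.00449), LYAR, a nucleolar protein, by 1.42 ± 0.21 (adjusted p = 0.00612), and POLR3E, a subunit of RNA polymerase III, by 1.27 ± 0.19 (adjusted p = 0.00612). These calls held without each array in turn. DIS3L, an exonuclease of the cytoplasmic exosome, fell by 1.64 ± 0.31 (adjusted p = 0.0187), PDE12, which trims mitochondrial poly(A) tails, by 1.41 ± 0.28 (adjusted p = 0.0219), and RAN, the GTPase of nuclear transport, by 1.33 ± 0.26 (adjusted p = 0.0189). All of these calls ended without IVV HB 1 or IVV HB 3 (adjusted p up to 0.115, 0.135 and 0.119), and the probes of RAN gave -1.75 and -0.91. Of 29 splicing factors, HNRNPAB and SRSF11 were lower and 0 higher, with a median of -0.33. HNRNPAB fell by 1.01 ± 0.18 (adjusted p = 0.0148), with -0.96 for PA HB and -1.05 for CT HB, but its call ended without any 1 of 5 arrays (CT HB 1, IVV HB 1, IVV HB 3, PA HB 1 and PA HB 3, adjusted p up to 0.0879), and its probes gave -1.53 (adjusted p = 0.0161) and -0.48 (adjusted p = 0.375). SRSF11 fell by 1.58 ± 0.34 (adjusted p = 0.029), a call that ended without CT HB 1, CT HB 2, IVV HB 1 or IVV HB 3 (adjusted p up to 0.175), and HNRNPH1 differed by -0.73 (adjusted p = 0.0424), under 2-fold.

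PAPSS2, which makes the sulfate donor of cells, fell by 1.78 ± 0.36 (adjusted p = 0.0219), from -1.11, -0.38 and 0.16 in IVV HB to -1.67, -3.40 and -2.49 in PA HB and -2.30, -1.94 and -1.56 in CT HB. MAPKAPK2, a stress-activated kinase, fell by 1.72 ± 0.34 (adjusted p = 0.0219), and DLC1 by 1.68 ± 0.27 (adjusted p = 0.00952). The call of PAPSS2 ended without IVV HB 2 or IVV HB 3 (adjusted p up to 0.108), and those of MAPKAPK2 and DLC1 without IVV HB 1 or IVV HB 3 (adjusted p up to 0.119 and 0.0609). ABCB6, a porphyrin transporter, fell by 1.28 ± 0.22 (adjusted p = 0.0113, and 0.0716 without IVV HB 1). EFCAB2 and CDV3 fell by 1.36 ± 0.20 (adjusted p = 0.00662) and 1.38 ± 0.22 (adjusted p = 0.00814), the latter with an adjusted p of 0.05, just past the limit, without IVV HB 1.

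The pooled difference also took in genes that moved much more in 1 manipulated group. PPIC, a prolyl isomerase of the secretory pathway, gave -1.12, -1.23 and -0.94 in IVV HB, 0.54, -0.08 and -0.59 in PA HB, and 2.22, 1.04 and 2.17 in CT HB. It rose by 1.98 ± 0.29 (adjusted p = 0.00612), with 1.06 for PA HB and 2.91 for CT HB, with a difference of 1.85 between them (adjusted p = 0.00661). RPL23A rose by 1.89 ± 0.27 (adjusted p = 0.00527), with 2.79 for PA HB and 0.99 for CT HB, a difference of -1.80 (adjusted p = 0.00578).

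In some called genes CT HB stayed close to IVV HB. EPB42, a protein of the red cell membrane, had a pooled difference of 1.23 ± 0.22 (adjusted p = 0.0148), with 2.19 for PA HB and 0.26 for CT HB, whose arrays (0.45, 0.87 and 0.63) lay within the IVV HB range (0.05, 1.05 and 0.06). The other red cell genes measured, ALAS2 of haem synthesis and the globin HBE1, differed by 0.28 (adjusted p = 0.333) and 0.01 (adjusted p = 0.996). GATA6, a transcription factor of the hypoblast, gave 0.03, 0.89 and 0.53 in IVV HB, 2.19, 2.43 and 2.99 in PA HB, and 0.86, 1.23 and 0.87 in CT HB, a pooled difference of 1.28 ± 0.22 (adjusted p = 0.0128). ATP6V1G2, a proton pump subunit, had one of 1.03 ± 0.25 (adjusted p = 0.0459), with 1.87 for PA HB and 0.20 for CT HB. METAP1, which removes the initiator methionine, had one of -1.35 ± 0.31 (adjusted p = 0.0415), with -2.10 for PA HB and -0.61 for CT HB. In EPB42, GATA6, ATP6V1G2 and METAP1 the groups CT HB and PA HB differed by -1.93, -1.55, -1.66 and 1.49 (adjusted p = 0.00478, 0.00537, 0.00578 and 0.02). The pooled calls ended without IVV HB 1 or IVV HB 3 for EPB42 and GATA6 (adjusted p up to 0.0928 and 0.0815), without any array but PA HB 1 for ATP6V1G2 (up to 0.253), and without any but IVV HB 2, PA HB 1 and PA HB 3 for METAP1 (up to 0.234).

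Lineage genes were read against the 1.61% of all genes that were called. Of 19 trophectoderm genes 0 were called (median 0.08), of 8 inner cell mass and epiblast genes 0 (median -0.19), and of 12 hypoblast genes only GATA6 (median -0.03), counts too small to set these lists apart from that share. FGFR1, a fibroblast growth factor receptor of the epiblast list, differed by 0.62 (adjusted p = 0.0391), under 2-fold. POU5F1, the pluripotency factor, had a pooled difference of -0.46 (adjusted p = 0.396). LAMB1, a basement membrane laminin chain of the hypoblast list, differed by 0.87 (adjusted p = 0.0233) and APOE, a lipid carrier of that list, by -0.75 (adjusted p = 0.0219), both under 2-fold. Imprinted genes gave 0 calls among 8 paternally and 6 maternally expressed genes, with medians of -0.05 and 0.10. Of 29 DNA methylation and chromatin genes, MBD3, a subunit of a histone deacetylase complex, fell by 1.21 ± 0.23 (adjusted p = 0.0189, and 0.0958 without IVV HB 3), with a list median of 0.03. EED, a subunit of a Polycomb complex, differed by -0.67 (adjusted p = 0.0394). CDC20, an activator of the anaphase-promoting complex, was called of 27 cell cycle genes, with 1.72 in PA HB and 0.34 in CT HB, and its call ended without IVV HB 1, IVV HB 3 or PA HB 2 (adjusted p up to 0.112). Of 23 DNA replication genes 0 were called, and GINS1, a subunit of the replicative helicase, differed by -0.82 (adjusted p = 0.02).

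Oocyte transcripts, the markers of maternal RNA, gave 0 calls of 23, although all 23 lay above 0 in the pooled difference. Their median was 0.37, but 0.21 under quantile and 0.90 under scale normalization. FIGLA, an oocyte transcription factor, differed by 0.94 (adjusted p = 0.0167), under 2-fold. The list medians were 1.00 in PA HB and -0.12 in CT HB. Of the 23, 15 differed between CT HB and PA HB, against 7.77% of all genes. A dense common profile over the arrays held 738 probes (3.08%). Of the 7506 genes 276 had a probe in it, 9 of these 23 among them. Its median log2 ratio was 0.29 to 2.13 on IVV HB arrays, 2.16 to 3.40 on PA HB arrays and 0.03 to 1.06 on CT HB arrays. A gene with this profile was unlikely to pass the pooled test. That 0 of the 121 called genes had a probe in it is therefore no separate result. Of the markers of other cell types, 0 of 11 cumulus and granulosa genes, 0 of 6 oviduct and uterine genes and 0 of 8 fibroblast genes were called, with medians of 0.06, 0.04 and 0.04. At a share of 1.61% over all genes, lists this short could hold 0 calls without differing from the rest.

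**Figure D4:**
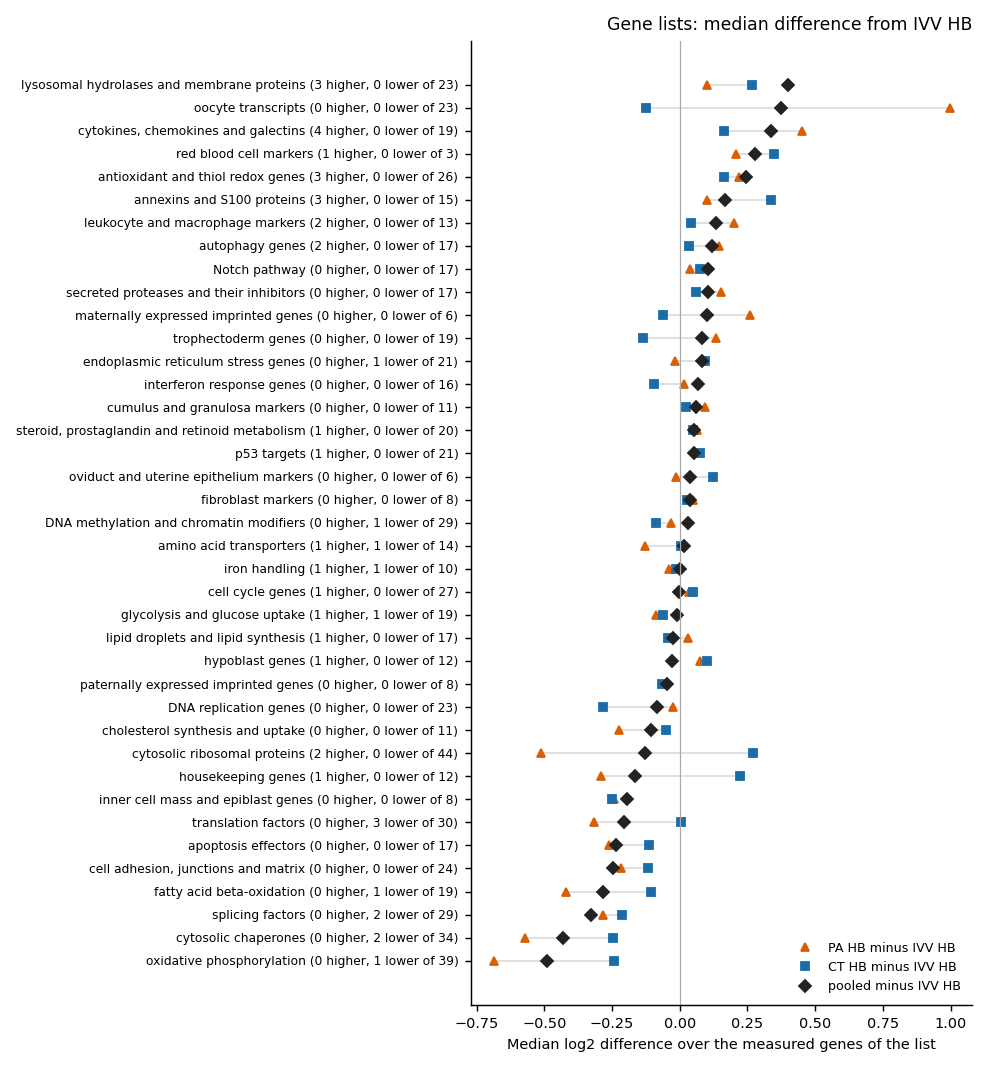
Each row is 1 of 39 gene lists, with the median log2 difference from IVV HB over its measured genes for PA HB, CT HB and both pooled, and the number of genes called higher or lower in the pooled difference. The lysosomal list has a pooled median of 0.40, which became 0.20 under quantile and 0.22 under scale normalization, and oxidative phosphorylation one of -0.49, while oocyte transcripts lie at 1.00 in PA HB and -0.12 in CT HB.

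The candidate genes of the study were also read out where they were measured under a gene symbol, 18 in number, some of them above. NANOG, HES1, ANXA8, GSTP1 and PHLDA3 were not among them. The paper's findings on these genes were therefore not tested. In the Notch pathway 17 of 31 listed genes were measured, HES1 not included. Of these 17 genes 0 were called, with a median of 0.11. HEY2, a Notch target, gave -0.71, 0.45 and -0.22 in IVV HB, 1.22, 1.18 and 1.20 in PA HB, and -0.06, 0.01 and -0.20 in CT HB. Its pooled difference was 0.72 (adjusted p = 0.0949), and CT HB lay 1.29 below PA HB (adjusted p = 0.00733). JAG1, a Notch ligand, differed by 0.45 (adjusted p = 0.196) with probes at -0.47, 0.15 and 1.67, PSEN2, a subunit of gamma-secretase, by -0.48 (adjusted p = 0.0772) with probes at -1.05 and 0.10, and NCSTN, another subunit, by 0.73 (adjusted p = 0.41). The trophectoderm keratins KRT8 and KRT18 had pooled differences of 0.79 (adjusted p = 0.0825) and -0.67 (adjusted p = 0.0703), and the probes of each disagreed in size, with 0.50 and 1.07 for KRT8 and -1.14 and -0.19 for KRT18. KRT8 gave 0.44, 0.20 and 1.15 in IVV HB, 1.47, 1.91 and 1.69 in PA HB, and 0.70, 1.20 and 1.34 in CT HB. KRT18 gave 0.49, 0.67 and 0.98 in IVV HB, -0.20, -0.43 and -0.60 in PA HB, and 0.19, 0.53 and 0.80 in CT HB. By QPCR the paper reported both keratins lower in PA HB than in IVV HB. GATA2, a trophectoderm transcription factor, differed by 0.06 (adjusted p = 0.953), a value that turned to -0.41 under quantile and -0.36 under scale normalization, and DPP4, a membrane peptidase, by 0.08 (adjusted p = 0.871), which turned to -0.59 and -0.22. The lysosomal protease gene LGMN differed by 0.71 (adjusted p = 0.094), and KCTD3, MYO6 and PRDX3 by 0.22, -0.17 and 0.27 (adjusted p = 0.557, 0.617 and 0.341). The probes of KCTD3 disagreed, with -0.37, -0.06 and 1.09, the last past both thresholds (adjusted p over probes = 0.0156), and those of PRDX3 gave -0.24 and 0.79. Single probes past both thresholds were also held by JAG1 (1.67, adjusted p = 0.00756), PSEN2 (-1.05, adjusted p = 0.00786), KRT8 (1.07, adjusted p = 0.0297) and KRT18 (-1.14, adjusted p = 0.0264).

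Of the single arrays, leaving out IVV HB 1 or IVV HB 3 kept the fewest calls. Without IVV HB 1, 33 genes were higher and 15 lower, and 45 of the 121 calls were kept. Without IVV HB 3, 50 were higher and 23 lower, and 63 were kept. Leaving out each array in turn, 39 of the 121 genes passed every time, 31 of them higher, among them AIF1, INPP5D, FTL, CTSH, CTSK, IL6, PERP, ULK1, TXNIP and GSS, and 8 lower, among them SLC3A1, CACYBP, FTSJ3, ORAOV1, LYAR and POLR3E. Among the genes described above, quantile normalization between arrays ended the calls of GAPDH, EPB42, ATP6V1G2, CDC20, PPT1, DNAJC8, CP, TFAM, METAP1, EIF3A and SRSF11, and scale normalization those of MIF, ANXA1, PPT1, GATA6, EPB42, ATP6V1G2, CDC20, DNAJC8, EIF2S1, CP and METAP1. Centring of arrays ended that of HNRNPAB, and array weights ended those of PPT1, ATP6V1G2 and DNAJC8.

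**Figure D5:**
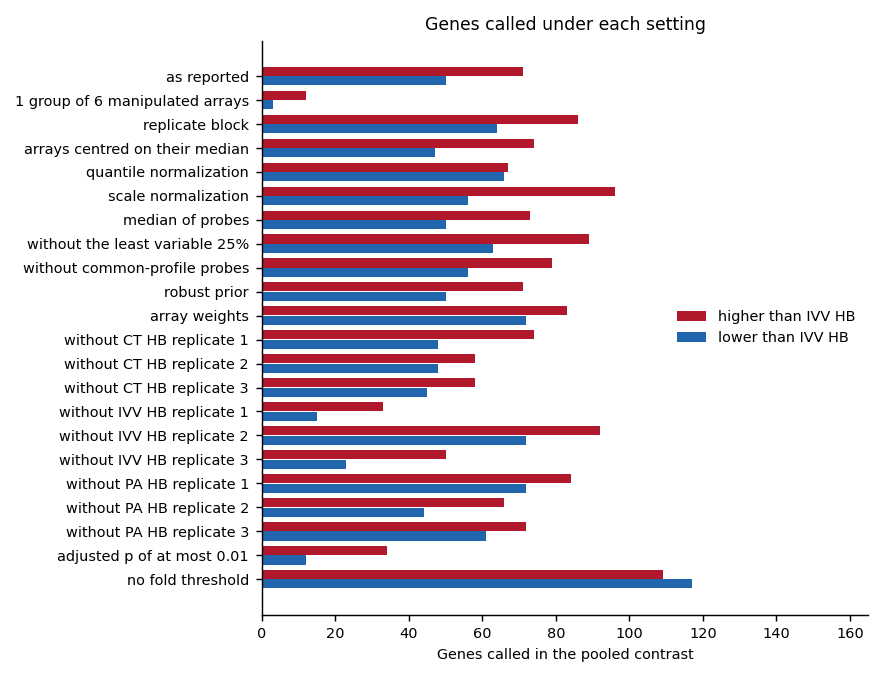
The bars give the number of genes called higher or lower in the pooled difference under each setting. The 71 higher and 50 lower genes as reported became 12 and 3 with 1 group of 6 manipulated arrays, and 33 and 15 without IVV HB 1.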

How the data were processed

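The authors deposited 1 log2 ratio per probe and array, after background subtraction and a global loess within each array, with no scaling between arrays stated. The table held 23971 probes and 0 missing values. Log base and direction are not written beside the values. Array medians lay between -0.11 and -0.03, and 23 oocyte transcripts, abundant in the reference, had array medians of -2.82 to -1.45, so that values were read as Cy5 over Cy3. Spot intensities were not analysed here, dim probes could not be set aside, and the number of arrays limits the precision.

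The platform annotation gave 1 symbol to 10344 probes and none to 13627. Of 2748 accessions 1567 were found in RefSeq, and 87 probes were renamed. Averaging the probes of each symbol left 7506 genes, 5700 with a single probe. Group means were fitted to all 9 arrays with limma 3.58.1 in R 4.3.3 (lmFit, eBayes), two-sided, adjusted by Benjamini-Hochberg over all genes, with the study's thresholds of 0.05 and 2-fold. SE, interval and p come from this fit. On simulated data for this contrast with 7506 genes, 93 of 100 genes were recovered at a log2 change of 1.5, 96 of 100 at 2, and 2 of 7306 unchanged genes were called. The simulation used independent normal noise with 1 fitted spread per gene and the same change on all 6 manipulated arrays. It held no difference between PA HB and CT HB and no wider PA HB spread, so recovery in the real data was not measured.

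Named genes were the 15 largest rises and falls among called genes whose 6 manipulated arrays all lay beyond the IVV HB arrays. Locus, open reading frame and clone identifiers were left out. Also named were up to 5 called genes with the largest difference between CT HB and PA HB each way. The study's candidate genes were named where measured. For each list described, at most 4 genes were named in order of adjusted p. Some with an adjusted p over 0.05 are not named, and some other members were added for their role. The comparison and the 39 gene lists were chosen with earlier results of these data known. Other settings were 1 group of 6 arrays, a block for the replicate number, 3 scalings between arrays (median centring, quantile, scale), single probes or their median in place of the mean, removal of the least variable 25% of genes, of common-profile probes (r of at least 0.95) or of each array, a robust prior, array weights and other thresholds. Genome positions and sequences were not used here.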

Additional observations from a re-analysis of the deposited data

Results flagged for a closer look

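The test between CT HB and PA HB (limma, adjusted p at most 0.05 and at least 2-fold) passed in 20 called genes named for the size of a difference. It also passed in HEY2, which was not called in the pooled difference. Other called genes described above passed it too. Among them were ANXA2 (1.38, log2 difference of CT HB minus PA HB), LGALS3 (1.36), TFAM (1.13), COQ3 (1.025) and CDC20 (-1.37). Among those of the 20 that were higher than IVV HB, CT HB lay above PA HB for PPIC (1.85). It lay below PA HB for SLC36A2 (-2.49), EPB42 (-1.93), RPL23A (-1.80), ATP6V1G2 (-1.66), GATA6 (-1.55), ECHDC1 (-1.28), HSD11B2 (-1.26), GPR120 (-1.23) and SLC5A9 (-1.09), and for HEY2 (-1.29). Among those lower than IVV HB, CT HB lay above PA HB, that is nearer to IVV HB, for CACYBP (2.21), CP (1.74), EIF2S1 (1.62), METAP1 (1.49), LYAR (1.30), DIS3L (1.30), ABCB6 (1.25), PDE12 (1.20), EFCAB2 (1.10) and RAN (1.09).

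Probes with no gene symbol also held a signal. Of 13627 such probes, 100 were higher (0.734%) and 112 lower (0.822%) in the manipulated embryos, against 100 and 100 of 10344 named probes. The largest rise among unnamed probes was 5.17 (adjusted p = 0.000419) and the largest fall was -2.35 (adjusted p = 0.000751).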

How the results depend on the processing

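With 1 group of 6 manipulated arrays, 12 genes were higher and 3 lower (887 genes at an unadjusted p under 0.05). Per probe, 200 were higher and 212 lower. An adjusted p of at most 0.01 left 34 and 12, and no fold limit gave 109 and 117. Leaving out 1 array gave 33 to 92 higher and 15 to 72 lower genes, 11 to 72 called genes that also differed between CT HB and PA HB, and 14 to 43 with an interval within 2-fold. The count of that last kind, computed under other settings after the data had been seen, was 53 with scale normalization. Quantile normalization moved the share of higher genes from 58.7% to 50.4%. Of the 121 calls, 121 were kept with a robust prior, 118 after centring, 110 with array weights, 91 after quantile and 89 after scale normalization. In any setting 0 values of called genes changed sign. The genes had been called in these data for a change of at least 2-fold, so a change of sign was unlikely in advance. GATA2 (0.06) turned to -0.41 under quantile and -0.36 under scale normalization, and ranged from -0.28 to 0.35 without 1 array (below 0 without CT HB 2 or IVV HB 1), and DPP4 (0.08) turned to -0.59 and -0.22 and ranged from -0.013 to 0.20 (below 0 without CT HB 3). The causes were not tested. Replicate numbers are shared between groups, but same-numbered deviations correlated by only -0.15 to 0.31, 4 of 9 pairs over 0.1, and 5 of 9 arrays correlated best with their own number. With that number as a replicate block, 86 genes were higher and 64 lower, and 61 of these differed between CT HB and PA HB. All 121 calls were kept.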
